A study of Bos taurus with 11 samples.

Results

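SREBF2 and 7 genes of cholesterol synthesis were followed in single bovine blastocysts in which GATA3 or CDX2 had been disrupted. The 8 genes were SREBF2, INSIG1, HMGCS1, IDI1, FDPS, FDFT1, SQLE and DHCR7, taken as the rows whose RefSeq accession maps to these bovine symbols. Of the 8576 transcripts with values for GATA3 KO and the 12047 with values for CDX2 KO, the 8 genes were present in both. All 8 also had a mean normalized count of at least 10 over the 7 embryos of a table, which 4271 and 5719 transcripts reached. INSIG1 was the only member with a group mean below 10, which was 8.80 in GATA3 KO. The members were chosen by their KO and WT values in these same embryos, so their differences in both tables are given as a description and without a test.

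RNA was sequenced from 11 early blastocysts collected on day 7 after fertilization, of which 3 were WT control, 4 were GATA3 KO and 4 were CDX2 KO. Every embryo, controls included, had received mRNA of BE3 as a zygote, a cytosine base editor that writes premature stop codons where a guide RNA leads it. GATA3 KO embryos were co-injected with a mix of GATA3 sgRNAs and CDX2 KO embryos with a mix of CDX2 sgRNAs, and WT control embryos received no guide RNA. Each embryo was edited on its own and gave its own library from the whole blastocyst, so the extent of editing can differ between embryos and between the cells of an embryo. In whole embryos, fewer cells of a type and less RNA per cell cannot be told apart.

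Cholesterol is made from acetyl-CoA by the mevalonate pathway, which ends in farnesyl diphosphate, and by the sterol branch that starts with squalene. SREBF2 encodes SREBP2, a transcription factor held in the membrane of the endoplasmic reticulum, which is cut free when sterols are scarce and then switches on the genes of the whole pathway. INSIG1 keeps it in place when sterols are abundant and is itself one of its targets. Growing embryos need cholesterol for new membranes.

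Libraries were shallow: an embryo had 150057 to 540775 counts in total in the GATA3 KO table, and 100731 to 662962 in the CDX2 KO table. A floor of 3 counts, taken as the least that can be told from 0, corresponded to normalized counts from 1.29 to 6.99, and covers counting error only, since the libraries had no molecular identifiers. Both tables hold the same 3 WT control embryos, but their counts were 1.86 to 1.88 times higher in the CDX2 KO table, and the reason was not tested. The tables were normalized separately, so embryos were compared within a table only. GATA3 itself, the targeted gene, read 71.3 to 87.6 normalized counts in WT control and 9.85 to 13.1 in GATA3 KO embryos. CDX2 lay near the floor, with 6.88 to 11.1 in WT control and 1.66 to 4.66 in CDX2 KO embryos. Of 12 trophectoderm markers, 10 and 11 were listed, with a summed normalized count of 3597 to 8173 in WT control and 3960 to 5646 in GATA3 KO embryos, and of 5045 to 12632 in WT control and 2512 to 8562 in CDX2 KO embryos. KRT8 and KRT18 made up most of these sums. Cumulus cell markers reached at most 5 counts per embryo in the first table and 52 in the second, for 1 and 7 listed of 8. Every WT control embryo had Y-linked counts (at least 29). Of the KO embryos, only GATA3 KO embryo 6 with 68 and CDX2 KO embryo 5 with 155 did, beside 2 counts in GATA3 KO embryo 5 and 0 in the rest.

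The transcription factor SREBF2 was the member that set GATA3 KO apart from WT control. WT control embryos 1 to 3 had a normalized count of 74.2, 74.6 and 59.1, whereas GATA3 KO embryos 3 to 6 had 17.4, 22.4, 29.8 and 23.8. All 4 GATA3 KO embryos lay below all 3 WT control embryos, with a wide gap between 29.8, the highest KO value, and 59.1, the lowest control. WT control averaged 69.3 ± 8.84 (SD, n = 3), 2.97 times the mean of 23.3 ± 5.11 (SD, n = 4) of GATA3 KO. On the scale of log2(normalized count + 1), the difference was -1.55 (standard error 0.27), beside a median of 0.11 over all 4271 transcripts tested, or -1.66 relative to that median. These values rest on 38 to 94 counts in WT control and 12 to 52 counts in GATA3 KO embryos.

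**Figure D1:**
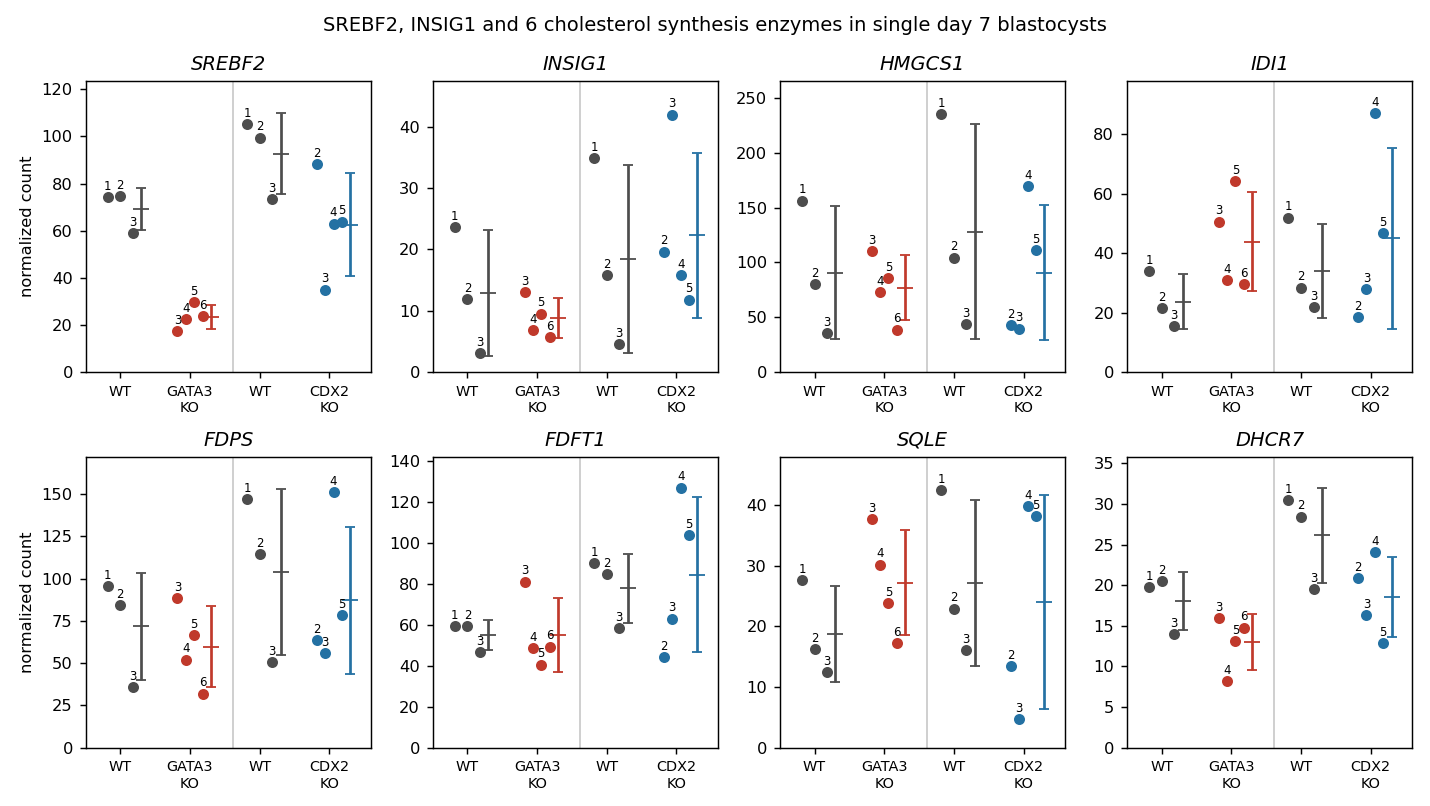
Normalized count (y axis) of each of the 8 genes in every embryo, with WT control in grey, GATA3 KO in red and CDX2 KO in blue. Numbers are embryo numbers, horizontal marks are group means and vertical bars 1 SD, and the grey line separates the 2 tables, which were normalized separately. For SREBF2 the 4 GATA3 KO embryos, 17.4 to 29.8, sit below the WT control embryos, 59.1 to 74.6, whereas for the other genes the groups overlap.

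Some markers of the cell lineages of the blastocyst also differed between these embryos. A transcript was called at an adjusted p of 0.05 or less and a fold change from 1.5 upward or from 0.6 downward. Of 8 trophectoderm markers tested in GATA3 KO, limma called 3 (beside 2.01% of all transcripts tested), namely GATA3 and GATA2 (log2 difference -1.16, adjusted p = 0.0344) as lower and TFAP2C (1.03, adjusted p = 0.0442) as higher, and the median was -0.43. Of the same 8, edgeR called 4 and DESeq2 5, beside 126 and 158 of all transcripts. In limma 5 had an unadjusted p under 0.05, beside 965 of all 4271. Among them were KRT19 (-1.21, adjusted p = 0.0636 in limma) and KRT18 (-0.77, adjusted p = 0.111 in limma). Of 8 epiblast markers 5 were listed, with a summed normalized count of 162 to 193 in WT control and 83.9 to 192 in GATA3 KO embryos, and the 4 tested had a median of -0.96 with 0 called by limma, edgeR or DESeq2 and 2 at an unadjusted p under 0.05. Of 7 primitive endoderm markers 5 were listed, with sums of 811 to 985 and 557.5 to 1280, and their median was -1.08, with APOA1 called as lower (-1.55, adjusted p = 0.0295 in limma). Both edgeR and DESeq2 also called APOA1 alone of these, and 2 had an unadjusted p under 0.05 in limma. The calls of GATA2, TFAP2C and APOA1 were all lost without WT control embryo 2 (adjusted p = 0.152, 0.181 and 0.174 in limma), without GATA3 KO embryo 3 (0.103, 0.0870 and 0.0869) or 4 (0.113, 0.115 and 0.0507), without the trend, and with a term for Y-linked counts (0.386, 0.314 and 0.172). That of TFAP2C was also lost under quantile normalization (0.0584). GATA2 and TFAP2C also lost theirs without WT control embryo 3 (0.0714 and 0.0968), and TFAP2C and APOA1 without GATA3 KO embryo 5 (0.0893 and 0.0503). The summed levels of these lists overlapped between the groups, whereas GATA3, GATA2, TFAP2C, SALL4, APOA1 and COL4A1, 6 of the 17 markers tested, did not overlap, beside 18.9% of all transcripts tested. The trophectoderm sum was mostly KRT8 and KRT18 (WT control means 3051 and 2128) and the primitive endoderm sum mostly FN1 (696). Their overlap therefore says little of the other markers. In CDX2 KO the medians were -0.65, -0.02 and -0.22 for the 3 lineages, with 0 called by limma, edgeR or DESeq2 and 0 at an unadjusted p under 0.05. GATA2 was the only marker tested there whose groups did not overlap, beside 5.88% of all transcripts tested. It read 148 to 201 in WT control and 60.6 to 125 in CDX2 KO embryos, a log2 difference of -0.85. The part of these lineages in the values of SREBF2 was not tested.

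The remaining members did not follow SREBF2. In the table of GATA3 KO, SREBF2 was the only member whose groups did not overlap, beside 18.9% of all transcripts tested, and since this contrast served to choose the members, nothing is read from that count. Over the other 7 members the log2 difference ran from -0.47 to 0.86, with a median of -0.09, and 2 lay above 0 and 5 below.

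INSIG1, the protein that retains SREBP2 in the endoplasmic reticulum, read 23.7, 11.9 and 3.11 in WT control and 13.0, 6.89, 9.53 and 5.75 in GATA3 KO. WT control embryos 1 and 3 held its highest and lowest values and enclosed all KO embryos. The log2 difference was -0.22, smaller than its standard error of 0.58, and rests on only 2 to 30 counts per embryo.

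Of the 3 members in the mevalonate pathway, IDI1 had the highest values in GATA3 KO relative to control. HMGCS1, the synthase of the pathway's early step, read 156, 80.0 and 35.7 in WT control and 110, 72.8, 85.8 and 38.6 in GATA3 KO embryos, a log2 difference of -0.09 (standard error 0.40). Every GATA3 KO value of HMGCS1 fell within the range of the WT control. IDI1, which interconverts the 2 isoprene building blocks, read 33.9, 21.6 and 15.5 in WT control and 50.7, 31.0, 64.3 and 29.6 in GATA3 KO embryos. GATA3 KO embryos 3 and 5 exceeded every WT control embryo, and embryos 4 and 6 lay between WT control embryos 2 and 1. The means were 23.7 ± 9.37 (SD, n = 3) and 43.9 ± 16.7 (SD, n = 4), with a log2 difference of 0.86 (standard error 0.34). FDPS, which makes farnesyl diphosphate, read 95.5, 84.3 and 35.7 in WT control and 88.3, 52.1, 66.7 and 32.0 in GATA3 KO, a log2 difference of -0.23 (standard error 0.36). Its groups overlapped over nearly their whole range.

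In the sterol branch the pattern was as mixed. FDFT1, the squalene synthase, read 59.2, 59.4 and 46.6 in WT control and 81.0, 48.7, 40.5 and 49.3 in GATA3 KO embryos. Its log2 difference was -0.05 (standard error 0.28), with 1 KO embryo above and 1 below all controls. SQLE, the epoxidase at a rate-limiting step of the sterol branch, read 27.6, 16.2 and 12.4 in WT control and 37.6, 30.2, 23.8 and 17.2 in GATA3 KO embryos. GATA3 KO embryos 3 and 4 lay above all controls, and the log2 difference was 0.53 (standard error 0.34). DHCR7, which carries out the last reduction to cholesterol, read 19.7, 20.5 and 14.0 in WT control and 15.9, 8.19, 13.1 and 14.8 in GATA3 KO embryos. GATA3 KO embryos 4 and 5 lay below all controls, with a log2 difference of -0.47 (standard error 0.35) and 9 to 25 counts in any embryo.

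In the 9 alternative analyses of the GATA3 KO table that tested all 8 members, which changed the pseudocount, filter, scaling, threshold or tool, the log2 difference of SREBF2 stayed between -1.70 and -1.40, and those of the other 7 members kept their sign. Their sizes moved, with HMGCS1 down to -0.39, INSIG1 to -0.82, FDFT1 to -0.21 and FDPS to -0.43. Dropping the filter or the trend and changing the fold change threshold cannot alter a log2 difference, so only the remaining analyses bear on these ranges. Leaving out an embryo gave -1.67 to -1.42 for SREBF2, but turned the sign of 4 other members. The log2 difference then ran from -0.63 to 0.42 for HMGCS1, from -0.92 to 0.37 for INSIG1, from -0.67 to 0.03 for FDPS and from -0.25 to 0.08 for FDFT1. All 4 rose above 0 without WT control embryo 1, HMGCS1 and FDPS also without GATA3 KO embryo 6, and FDFT1 also without WT control embryo 2 or GATA3 KO embryo 5. A term for Y-linked counts in effect set GATA3 KO embryo 6 alone against the controls. With it SREBF2 was at -1.49 (standard error 0.42), HMGCS1 at -0.97 (standard error 0.56), FDPS at -1.02 (standard error 0.49) and SQLE, which turned its sign, at -0.04 (standard error 0.50). The part of the Y-linked counts in the members' values was not tested.

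**Figure D2:**
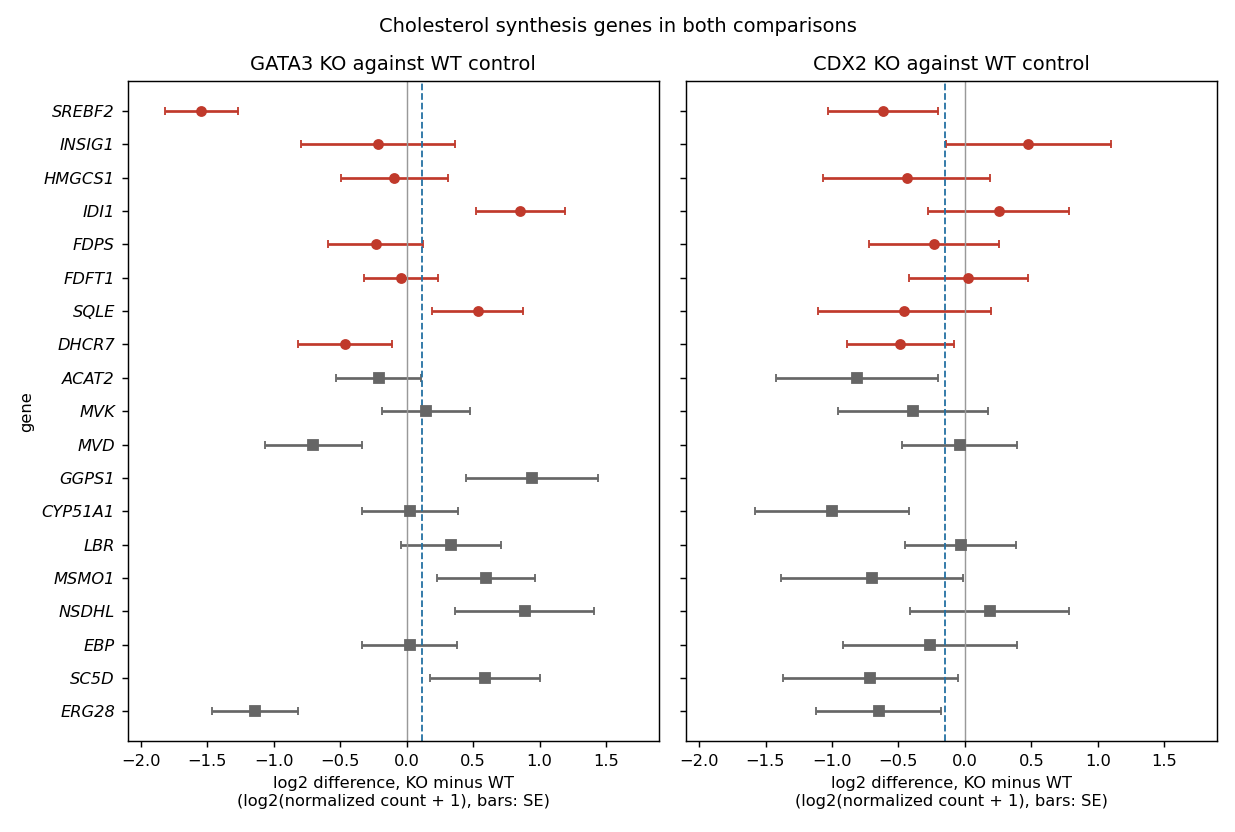
Difference in log2(normalized count + 1), KO minus WT control (x axis), for the 8 members (red circles) and 11 other cholesterol synthesis genes (grey squares) in GATA3 KO (left) and CDX2 KO (right). Bars are standard errors from limma, the grey line is 0 and the dashed line is the median of all transcripts tested, 0.11 and -0.15. SREBF2 lies at -1.55 in GATA3 KO and at -0.62 in CDX2 KO. GGPS1 had a mean below 10 in the right panel and is not drawn there.

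In the CDX2 KO table the groups overlapped for all 8 genes. SREBF2 read 105, 99.5 and 73.4 in WT control and 88.2, 35.0, 63.0 and 63.9 in CDX2 KO embryos, numbered 2 to 5. Embryos 3, 4 and 5 lay below all controls, and embryo 2 lay between WT control embryos 2 and 3. The means were 92.7 ± 17.0 (SD, n = 3) and 62.5 ± 21.8 (SD, n = 4), and the log2 difference was -0.62 (standard error 0.42), beside a median of -0.15 over all 5719 transcripts tested. The lowest value came from CDX2 KO embryo 3, the shallowest library, with 15 counts for SREBF2, and without that embryo the log2 difference was -0.37. When an embryo was left out, the difference ran from -0.80 to -0.37. Whether SREBF2 differed between the 2 knockouts was not tested, since the tables share their controls and were scaled apart.

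In CDX2 KO limma called 0 of 5719 transcripts (0%), 187 had an unadjusted p under 0.05, edgeR called 1 and DESeq2 called 10. No member's groups were free of overlap, beside 5.88% of all transcripts tested. INSIG1 read 34.9, 15.8 and 4.59 in WT control and 19.6, 41.9, 15.8 and 11.8 in CDX2 KO embryos, a log2 difference of 0.48 (standard error 0.62). IDI1 read 52.0, 28.4 and 21.8 against 18.4, 28.0, 87.1 and 46.7, a log2 difference of 0.25 (standard error 0.53). For both genes a single KO embryo, embryo 3 for INSIG1 and embryo 4 for IDI1, exceeded every control.

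HMGCS1 read 235, 104 and 43.6 in WT control and 42.9, 39.6, 169 and 111 in CDX2 KO embryos, a log2 difference of -0.44 (standard error 0.63). SQLE read 42.5, 22.9 and 16.0 against 13.5, 4.66, 39.8 and 38.1, a log2 difference of -0.46 (standard error 0.65). In both genes CDX2 KO embryos 2 and 3 lay below all controls and embryos 4 and 5 lay between WT control embryos 1 and 2. FDPS read 147, 115 and 50.4 against 63.7, 55.9, 151 and 78.4, a log2 difference of -0.23 (standard error 0.49), and FDFT1 read 90.1, 84.5 and 58.5 against 44.1, 62.9, 127 and 104, a log2 difference of 0.03 (standard error 0.45). For these 2 enzymes embryo 4 was the highest of all 7. DHCR7 read 30.4, 28.4 and 19.5 against 20.8, 16.3, 24.1 and 12.9, a log2 difference of -0.49 (standard error 0.40), with CDX2 KO embryos 3 and 5 below all controls. Leaving out an embryo turned the sign of 6 of the 8 members in this table, SREBF2 and DHCR7 being the exceptions. Over the 9 other analyses that tested all 8 members, SREBF2 ran from -0.62 to -0.38, SQLE from -0.50 to -0.05 and FDFT1 from 0.03 to 0.28, and FDPS turned its sign under quantile normalization, at 0.02. Here too the filter, the trend and the fold change threshold cannot alter a log2 difference. A term for Y-linked counts in effect set CDX2 KO embryo 5 alone against the controls. With it HMGCS1 (0.12), SQLE (0.59) and INSIG1 (-0.23) turned their sign, and DHCR7 was at -0.94.

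Within a group, the members tended to be high or low in the same embryos. WT control embryo 3 had the lowest value of the 3 controls for 8 of 8 members in both tables, whereas it was lowest for 32.5% and 33.4% of all transcripts tested. WT control embryo 1 was the highest for 5 of 8 members in the table of GATA3 KO and 8 of 8 in that of CDX2 KO, against 40.4% and 43.7% of all transcripts. These are the same 3 embryos, so the tables do not repeat each other as evidence. The highest WT control value was 4.37 times the lowest for HMGCS1, but 1.26 times for SREBF2 and 1.27 times for FDFT1 in the table of GATA3 KO.

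Among GATA3 KO embryos, embryo 3 was the highest of the 4 for 6 of 8 members, against 26.4% of all transcripts, and embryo 6 was the lowest for 5 of 8, against 26.3%. Embryo 3, the highest for 6 members, was the lowest for SREBF2. Among CDX2 KO embryos, embryo 4 was the highest for 6 of 8 members, against 27.3% of all transcripts, and embryo 3 the lowest for 4 of 8, against 44.6%.

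**Figure D3:**
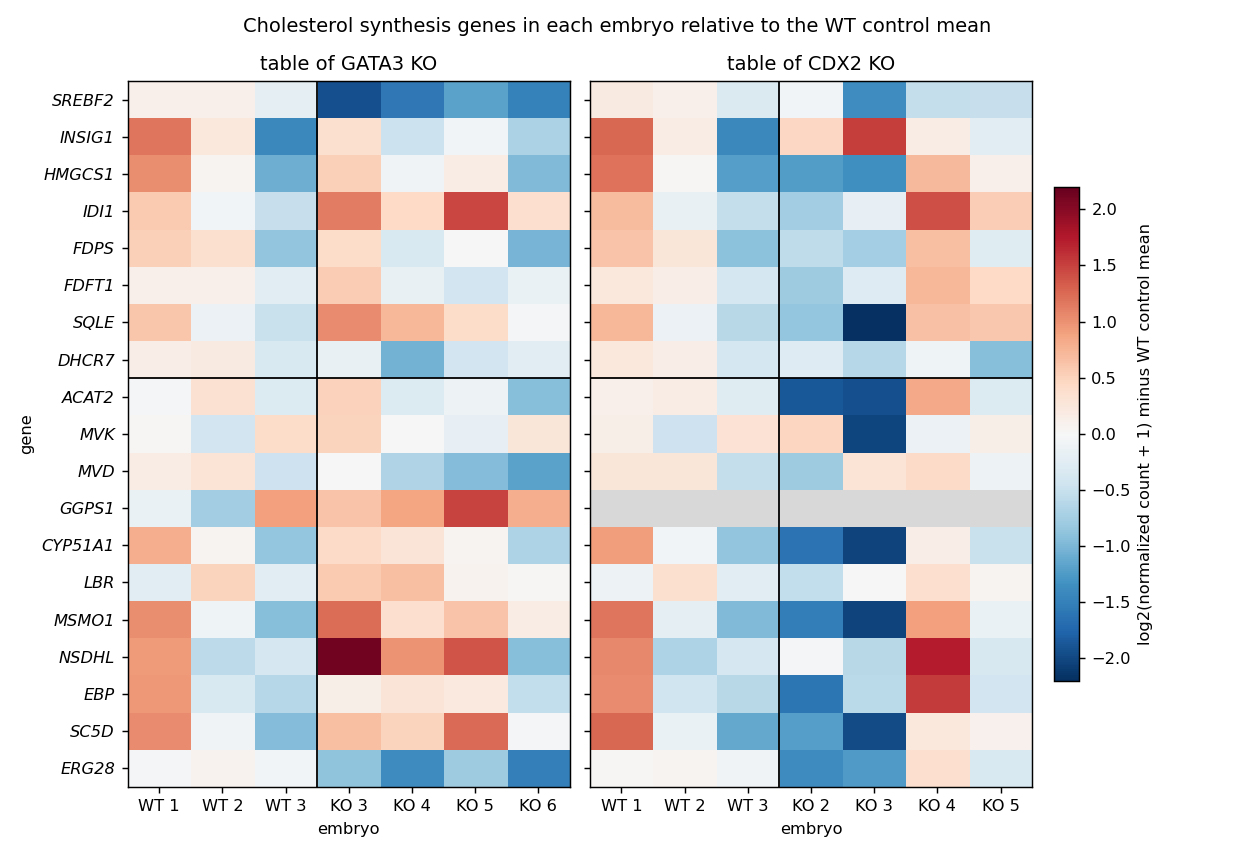
Each cell is the log2(normalized count + 1) of a gene (row) in an embryo (column) minus the mean of the 3 WT control embryos, from blue (lower) through white (0) to red (higher); grey cells were not tested. The black horizontal line separates the 8 members from 11 other cholesterol synthesis genes and the vertical line WT control from KO. SREBF2, ERG28 and, more faintly, DHCR7 and MVD lie below 0 in all 4 GATA3 KO embryos, WT control embryo 1 and CDX2 KO embryo 4 are mostly red, and CDX2 KO embryos 2 and 3 mostly blue.

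When the 6 enzymes among the members were averaged per embryo, SREBF2 and the enzymes came apart in GATA3 KO. Relative to the WT control mean, the enzymes were at 0.49, 0.09 and -0.58 in the controls and at 0.58, -0.07, 0.20 and -0.34 in GATA3 KO on the log2 scale. SREBF2 was at 0.11, 0.11 and -0.22 in the same controls and at -1.93, -1.58, -1.18 and -1.49 in the KO embryos. GATA3 KO embryo 3 had the lowest SREBF2 and the highest enzyme mean of all 7 embryos. In the CDX2 KO table the enzyme mean was 0.62, 0.05 and -0.67 in the controls and -0.75, -0.90, 0.68 and 0.08 in KO embryos 2 to 5, with SREBF2 at -0.05, -1.37, -0.53 and -0.51. CDX2 KO embryos 2 and 4 thus lay far apart in the enzymes, below and above the control mean, with SREBF2 near to or below its control mean in both. CDX2 KO embryos 2 and 3, the lowest for the enzymes, had 218797 and 100731 counts, the fewest of that table, and the part of depth in their values was not tested.

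**Figure D4:**
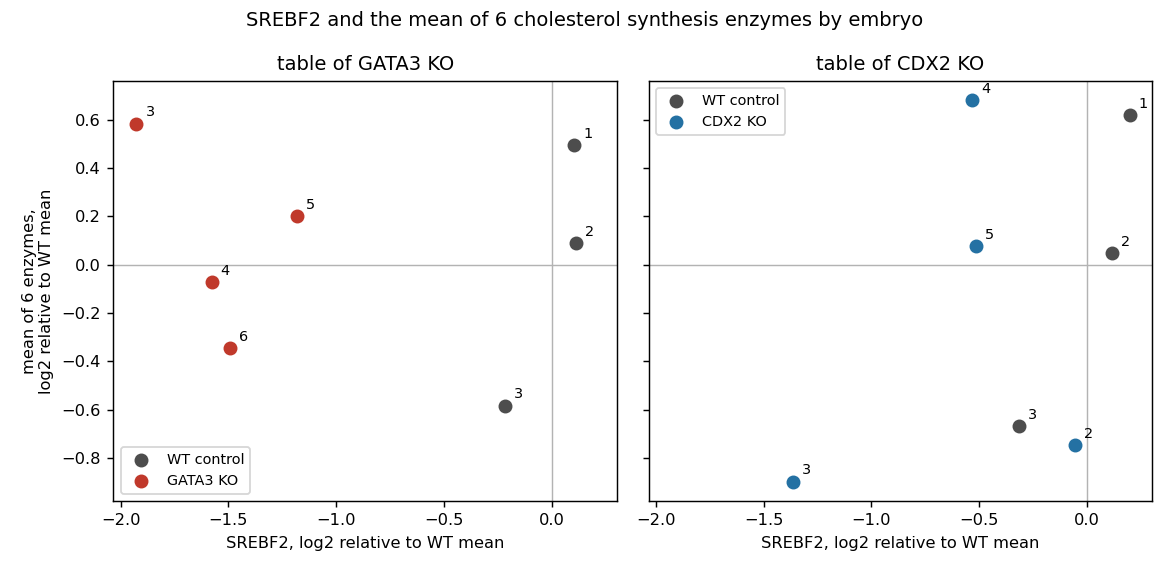
Mean of the 6 enzymes HMGCS1, IDI1, FDPS, FDFT1, SQLE and DHCR7 (y axis) against SREBF2 (x axis) in each embryo, both as log2(normalized count + 1) minus the WT control mean. Points are embryos with their numbers, grey lines mark the WT control mean, and colours mark the groups. The 4 GATA3 KO embryos lie to the left, from -1.93 to -1.18 in SREBF2, at enzyme means from -0.34 to 0.58 that fall within or just above the range of the controls.

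The other enzymes of the pathway were next examined. Of 17 such genes, 16 had values for GATA3 KO, TM7SF2 being the exception, and 12 were tested; PMVK, LSS and HSD17B7 were among those with means below 10. In limma with Benjamini-Hochberg adjustment over all transcripts 0 of the 12 were called, beside 2.01% of all transcripts, and 1 had an unadjusted p under 0.05, as did 965 of all 4271. edgeR and DESeq2 on the recovered counts each called 1. The log2 differences were above 0 for 8 and below 0 for 4 genes, with a median of 0.09, close to the 0.11 of all transcripts tested.

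The gene with an unadjusted p under 0.05, which was also the gene called by edgeR and DESeq2, was ERG28, which encodes a small membrane protein of the sterol demethylation complex. ERG28 read 26.8, 29.2 and 26.4 in WT control and 14.5, 9.91, 15.5 and 9.03 in GATA3 KO embryos, and the groups did not overlap. Its log2 difference was -1.14 (standard error 0.32, adjusted p = 0.0626 in limma), just outside the threshold. The adjusted p ranged from 0.0434 to 0.268 over 10 other analyses, 4 of which called it, under quantile normalization, median-ratio rescaling, edgeR and DESeq2.

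In the mevalonate pathway the log2 differences were -0.21 for ACAT2, 0.14 for MVK, -0.70 for MVD and 0.94 for GGPS1, with adjusted p-values from 0.258 to 0.824 in limma. In the sterol branch CYP51A1, the lanosterol demethylase, was at 0.03 and EBP, a sterol isomerase, at 0.02, while LBR was at 0.33, SC5D at 0.59 and MSMO1 at 0.60. With an embryo left out, SC5D ran from 0.11 to 1.11 and MSMO1 from 0.13 to 1.11. CYP51A1 then ran from -0.40 to 0.43, EBP from -0.29 to 0.50 and LBR from 0.21 to 0.58. None of these passed the threshold.

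NSDHL, an X-linked sterol dehydrogenase, read 48.1, 16.2 and 18.7 in WT control and 110, 49.5, 65.5 and 12.3 in GATA3 KO embryos. The 3 KO embryos without appreciable Y-linked counts exceeded all controls and embryo 6, which had 68, lay below them. The log2 difference was 0.89 (standard error 0.52, adjusted p = 0.325 in limma). Without GATA3 KO embryo 6 it was 1.496 with an adjusted p of 0.0431 in limma, and with the term for Y-linked counts, which leaves embryo 6 alone against the controls, it was -0.94. Among CDX2 KO embryos, NSDHL read 27.9 in embryo 5, where Y-linked transcripts were present, and 35.5, 23.3 and 122 in embryos 2, 3 and 4, where they were at 0. The part of the Y-linked counts in these values was not tested.

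In the table of CDX2 KO all 17 genes were listed and 11 were tested. Limma with Benjamini-Hochberg adjustment called 0 of them, as did edgeR and DESeq2, and 1 had an unadjusted p under 0.05. Only NSDHL, at 0.19, lay above 0, and the median of -0.65 was below the -0.15 of all transcripts tested. CDX2 KO embryos 2 and 3 stood apart from embryos 4 and 5 in ACAT2, with 17.2 and 16.3 against 117 and 52.6. MSMO1 read 27.0, 18.6, 149 and 71.9 in the KO embryos, and CYP51A1 15.9, 11.7, 56.4 and 36.0. The WT control ranges of these 3 genes were 53.9 to 72.7 for ACAT2, 40.1 to 181 for MSMO1 and 27.5 to 97.7 for CYP51A1, and embryos 2 and 3 lay below every control in all 3 of them. Averaged over the 11 genes, the 4 KO embryos were at -1.11, -1.30, 0.55 and -0.23 on the log2 scale relative to the WT control mean. CDX2 KO embryo 4 was the highest of the 4 for 10 of the 11 genes.

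The regulators around SREBF2 were tested from a list of other genes of SREBP processing and sterol sensing, of which 8 were tested in the table of GATA3 KO, 0 were called in limma, 2 had an unadjusted p under 0.05 (beside 965 of all 4271), and edgeR and DESeq2 each called 1, SREBF1. SREBF1, which encodes the sister factor SREBP1 and is known above all for fatty acid synthesis, read 18.9, 25.9 and 23.3 in WT control and 10.1, 4.31, 9.53 and 2.46 in GATA3 KO embryos. Its groups did not overlap. The log2 difference was -1.79 (standard error 0.47, adjusted p = 0.0518 in limma), just outside the threshold, and 6 of 10 other analyses called it, with adjusted p-values from 0.0127 to 0.196. None of the 7 fits without an embryo did. The KO values rest on 3 to 10 counts per embryo.

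SCAP, the escort that carries SREBP to the Golgi, read 14.2, 25.9 and 15.5 in WT control and 4.34, 10.8, 8.34 and 14.0 in GATA3 KO embryos, without overlap, at a log2 difference of -0.97 (standard error 0.43, adjusted p = 0.197 in limma). In all, 6 of the 8 genes of the list lay below 0, with a median of -0.26. In CDX2 KO, SREBF1 read 28.5, 32.4 and 30.9 in WT control and 28.2, 11.7, 12.4 and 18.3 in KO embryos, again without overlap but with embryo 2 next to the lowest control, at a log2 difference of -0.85 (standard error 0.42, adjusted p = 0.900 in limma). SCAP was at 0.40 there (standard error 0.41, adjusted p = 0.901 in limma), and 0 of the 9 genes tested were called, with a median of -0.06.

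**Figure D5:**
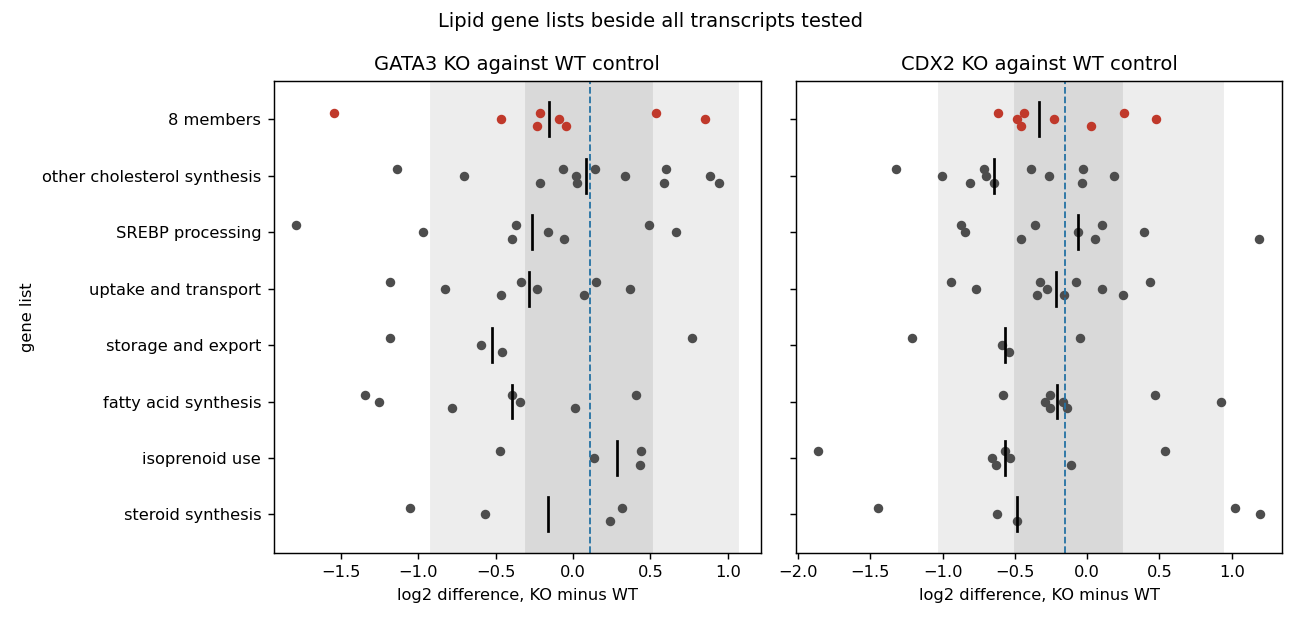
Log2 difference, KO minus WT control (x axis), of every tested gene (points) in 8 lipid gene lists (rows), with the 8 members in red. Black bars are list medians and the dashed line is the median of all transcripts tested. The dark grey band holds the middle 50% of all transcripts tested, and the light grey band a wider middle range of them. The bands describe single transcripts, not medians of lists. The medians of the members lie at -0.15 in GATA3 KO and -0.33 in CDX2 KO, and SREBF2 and SREBF1 are the points farthest to the left in GATA3 KO.

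Of the other lipid genes limma called 0 of 27 in GATA3 KO, where edgeR and DESeq2 each called 1, and 0 of 34 in CDX2 KO, as did edgeR and DESeq2. An unadjusted p under 0.05 was reached by 5 and 1 of them, beside 965 of all 4271 and 187 of all 5719 transcripts tested. Of the genes for cholesterol uptake and transport inside the cell, 8 were tested in the table of GATA3 KO and 10 in that of CDX2 KO, with medians of -0.28 and -0.22. GRAMD1A, a protein of sterol transfer from the plasma membrane, was at -0.83 in GATA3 KO and -0.08 in CDX2 KO. With an embryo left out it ran from -1.13 to -0.39 in GATA3 KO and from -0.37 to 0.36 in CDX2 KO.

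SOAT1, which esterifies cholesterol for storage, read 108, 87.5 and 97.9 in WT control and 187, 184, 110 and 208 in GATA3 KO embryos, all 4 above all controls. The log2 difference was 0.77 (standard error 0.26, adjusted p = 0.0935 in limma) and no other analysis called it, with adjusted p-values from 0.0611 to 0.301. In CDX2 KO the same gene read 164, 110 and 138 in WT control and 74.8, 16.3, 111 and 80.0 in KO embryos, with a log2 difference of -1.22 (standard error 0.57, adjusted p = 0.900 in limma) and 3 of 4 KO embryos below all controls. Without CDX2 KO embryo 3, which had 7 counts for SOAT1, the difference was -0.63. APOE, an apolipoprotein of cholesterol export, was at -1.18 (standard error 0.61, adjusted p = 0.258 in limma) in GATA3 KO, with 39.5, 4.32 and 17.1 in the controls. The 4 genes of storage and export tested in each table had medians of -0.53 and -0.57.

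Of the SREBP-controlled genes of fatty acid synthesis 7 were tested in the table of GATA3 KO, 5 of them below 0, with a median of -0.39. FADS2, a fatty acid desaturase, read 23.7, 44.3 and 12.4 in WT control and 5.79, 6.03, 13.1 and 12.3 in GATA3 KO embryos, a log2 difference of -1.34 (standard error 0.44, adjusted p = 0.0921 in limma), and edgeR and DESeq2 called it. ACACA, the acetyl-CoA carboxylase, read 16.6, 18.4 and 14.0 in WT control and 5.79, 4.74, 5.96 and 9.03 in GATA3 KO embryos. The groups of ACACA did not overlap, and the log2 difference was -1.25 (standard error 0.45, adjusted p = 0.117 in limma). In CDX2 KO the list had a median of -0.21 over 8 genes, FADS2 was at -0.17 and ACACA at 0.47.

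Users of farnesyl and geranylgeranyl diphosphate outside the sterols had a median of 0.28 over 4 genes in GATA3 KO and of -0.57 over 7 genes in CDX2 KO. RABGGTA, a subunit of the Rab prenyltransferase, was at -0.47 and -0.11, and NUS1, of dolichol synthesis, at 0.44 and -1.86. Without GATA3 KO embryo 5, which had 2 counts for RABGGTA, that gene was at 0.08 in GATA3 KO. Genes of steroid hormone synthesis had medians of -0.16 over 4 genes and -0.49 over 5. CYP17A1 was at -1.05 in GATA3 KO without overlap (standard error 0.49, adjusted p = 0.212 in limma) and at 1.02 in CDX2 KO, and FDXR at -0.57 and -1.45. NUS1 and FDXR were at 0 in the shallow CDX2 KO embryo 3, and without it their log2 differences in CDX2 KO were -0.93 and -0.38.

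Finally, the transcripts whose levels over the 7 embryos were most like the joint profile of the members were listed, the profile being the mean over the 8 members of their standardized log2 values. In the table of GATA3 KO the closest included TMEM79 (Pearson's r = 0.984, Spearman's rho = 0.964), KRT8 (r = 0.972, rho = 0.964), NUCB2 (r = 0.943) and TXNDC5 (r = 0.938), among 4263 transcripts. Without the 2 embryos farthest from the median profile, WT control embryos 1 and 3, r was 0.888 to 0.974 for these 4. KRT8, a keratin of the trophectoderm, had normalized counts of 4318, 3091 and 1746 in WT control and 3563, 2180, 2824 and 2368 in GATA3 KO embryos. Of the 8 trophectoderm markers tested, 3 were highest among the GATA3 KO embryos in embryo 3 (KRT8, KRT19 and PTGS2), 3 in embryo 5 (GATA3, GATA2 and TFAP2C) and 2 in embryo 6 (KRT18 and DAB2). The lowest was embryo 6 for GATA3, KRT19 and PTGS2, embryo 4 for KRT8, KRT18 and DAB2, and embryo 3 for GATA2 and TFAP2C. The part of trophectoderm content in the members' values was not tested.

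In the table of CDX2 KO the most alike of 5711 transcripts were SKA1 (r = 0.971, rho = 0.857), DAG1 (r = 0.964), B4GALT3 (r = 0.952), TMEM208 (r = 0.951) and MSMO1 (r = 0.950, rho = 0.929). MSMO1 is itself an enzyme of cholesterol synthesis, a methyl sterol oxidase. Of the other cholesterol synthesis genes 6 of 12 in the table of GATA3 KO and 5 of 11 in that of CDX2 KO ranked among the closest 5% of transcripts. CYP51A1 ranked 24 and 26 (r = 0.881 and 0.924), and SC5D ranked 216 and 18. Without the 2 embryos farthest from the median profile, r in the GATA3 KO table was lower for CYP51A1 (0.696), MSMO1 (0.543, from 0.788), EBP (0.297, from 0.733) and SC5D (0.271, from 0.681), and higher for ACAT2 (0.962, from 0.729) and MVD (0.801, from 0.709). In the CDX2 KO table it was 0.832 for CYP51A1, 0.842 for MSMO1 and 0.882 for SC5D, but 0.364 for EBP, from 0.823, and -0.315 for NSDHL, from 0.727. Over all transcripts ranked, the median r with all 7 embryos was 0.253 in the CDX2 KO table and -0.020 in that of GATA3 KO. GGPS1 (r = -0.51) and MVK (r = -0.24) did not follow the members in the table of GATA3 KO. These correlations describe 7 embryos each, 3 of them shared between the tables, and every value of an embryo comes from a single library with its own depth.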

How the data were processed

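Smart-seq2 libraries of polyadenylated RNA were made from single blastocysts of day 7. Per the labels and the study's methods, the authors used Trimmomatic for trimming, HISAT2 for mapping (ARS-UCD1.2), featureCounts for counting and DESeq2 for normalization. The deposited signal is a count divided by an embryo's size factor, in 2 tables, each normalized on its own. The deposited tables also hold the authors' fold changes and p-values, which were not used. All values (100%) were whole multiples of a step within 0.01 counts, from which counts were recovered. The number in a WT control column gave its sample. KO columns, numbered 3 to 6 and 2 to 5, could be assigned only to a group, and 0 columns stayed unused. RefSeq accessions were paired with symbols by a RefSeq gene table of ARS-UCD2.0 (98.6% of transcripts in each table), from which no coordinates were taken.

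Within a table, log2(normalized count + 1) was fitted with limma 3.58.1 (R 4.3.3, trended prior) keeping transcripts whose mean reached 10, and p-values were adjusted by Benjamini-Hochberg over all transcripts tested. Calls required an adjusted p no larger than 0.05 and a fold change from 1.5 upward or from 0.6 downward. Fold changes on this scale understate those of low transcripts. The analysis was repeated with pseudocounts 0.1 and 5, without the filter or with a mean of 100, after quantile normalization or median-ratio rescaling, without the trend, with fold changes of 2 or 0.5, with edgeR 4.0.16 and DESeq2 1.42.0 on recovered counts, with a covariate for embryos that had 10 or more Y-linked counts, and without each embryo in turn. Tables were handled in Python 3.11.15 with pandas 2.3.3. The code was tested on simulated counts.

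The members and gene lists were chosen with earlier results of these data known. Beside the members, the genes named were all other enzymes of cholesterol synthesis, the 2 tested genes of each other lipid list with the largest difference in GATA3 KO, the targeted genes and the 5 transcripts most like the members in each table. Embryos of a group were taken as replicates. Some genes were not reported here.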

Additional observations from a re-analysis of the deposited data

Results flagged for a closer look

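In groups of 4 embryos, a value was noted where its gap to the nearest other embryo exceeded the 95% critical value of Dixon's test. Of 43 groups examined 3 held such a value, and chance alone gives about 1 in 20, here 2.15. NSDHL was at 122 normalized counts in CDX2 KO embryo 4 and at 23.3 to 35.5 in the other 3 CDX2 KO embryos. EBP, which like NSDHL is X-linked, was at 136 in the same embryo and at 14.7 to 34.4 in the others. WT control embryo 1 also stood above the other controls in both genes, with 76.1 for NSDHL and 96.4 for EBP. GATA3 was at 9.85 in GATA3 KO embryo 6 and at 12.9 to 13.1 in the other GATA3 KO embryos. Before scaling these were 12 counts in embryo 6 and 9 to 30 in the others.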

How the results depend on the processing

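The 86 transcripts called in GATA3 KO (66 higher, 20 lower) became 145 with a pseudocount of 5, 172 without a filter, 37 at a mean of at least 100, 16 without a trend, 158 in DESeq2, 1 with the Y-linked covariate, and 1 to 293 with an embryo left out. The fits without an embryo called 293 without WT control embryo 1, 1 without embryo 2 and 18 without embryo 3, and 1, 2, 39 and 183 without GATA3 KO embryos 3 to 6. The split of higher against lower calls was 48 and 57 under quantile normalization, 56 and 53 under median-ratio rescaling, 57 and 69 in edgeR and 72 and 86 in DESeq2, where the median of all transcripts moved from 0.11 to between 0.0027 and 0.0090. Of the other cholesterol synthesis genes 0 were called in GATA3 KO, and 1 under quantile normalization, median-ratio rescaling, edgeR and DESeq2, with 0 to 1 when an embryo was left out, the 1 being NSDHL without GATA3 KO embryo 6. The median log2 difference of the 8 members, -0.15 in GATA3 KO, ran from -0.63 without WT control embryo 3 to 0.20 without WT control embryo 1. In CDX2 KO it was -0.33 and ran from -0.68 to 0.11 under the same omissions. The 0 transcripts called in CDX2 KO became 1 with a pseudocount of 5, 2 without a filter, 1 at a mean of at least 100, 2 under quantile normalization, 1 under median-ratio rescaling, 1 in edgeR, 10 in DESeq2 and 0 to 1 with an embryo left out, namely 1 without WT control embryo 2, WT control embryo 3 or CDX2 KO embryo 3. The cause of these shifts was not tested, beyond the fewer embryos or transcripts that enter some fits. INSIG1, DHCR7, SREBF1, SCAP, GGPS1 and ACACA rest on few counts. No paired analysis was possible because the KO columns carry numbers other than the replicate numbers of the labels, so that columns of KO and WT control embryos could not be matched.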
